A study of Mus musculus with 4 samples.

Results

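The DHX9 peaks of mouse chromosome 8 numbered 5170 of the 59563 in the deposited peak list (8.68%), and they were taken by the chromosome field of the list. The data come from FLASH, a form of CLIP-seq in which ultraviolet light crosslinks RNA to protein, an antibody pulls the protein down and the RNA fragments held by it are sequenced. All 4 samples were of WT26, a single male mouse embryonic stem (ES) cell line of strain C57BL/6x129sV grown without feeder cells. In 2 of them (replicates A and B) the antibody was a rabbit antibody to DHX9, and in 2 (replicates A and B) rabbit IgG served as the control. The list is pooled over samples: a peak is given by its ends and its strand, its score field is empty, and nothing is given per replicate or for IgG alone. The depth behind a peak and the spread between replicates are therefore unknown, and how the IgG samples entered the peak calls is not given in the sources used here. The chromosome was chosen for its high peak number, so its counts and densities are given as a description, with no test. They are set beside the 45668 peaks of the other autosomes except chromosome 11 (17 chromosomes). Intervals on shares are 95% Wilson intervals, which cover counting error over genes or peaks only. Most peaks stand in runs and are not independent, so intervals on shares of peaks are too narrow.

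DHX9 is a DExH-box helicase that unwinds RNA duplexes and RNA-DNA hybrids. It is mostly nuclear and is known to act on structured RNA in transcription, splicing and genome maintenance, and on base-paired RNA made by inverted repeats in transcripts. A CLIP peak marks a stretch where crosslinked RNA fragments pile up. It can therefore be called only where RNA is made, and the peak list holds no RNA level, so more RNA and more binding per RNA cannot be told apart in any count given here.

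MicroRNAs and gene starts lay directly under peaks of the chromosome, and examples are shown because the results on them turn on which bases are covered. MicroRNAs are short RNAs that are cut from hairpins and pair with messenger RNAs through a seed, bases 2 to 8, shown in capitals (mature sequences from RefSeq, GRCm38.p6, 5′ to 3′). They belong to the miR-23a, miR-27a, miR-24-2 cluster on the plus strand and to the miR-181c, miR-181d pair on the minus strand.
miR-27a-3p: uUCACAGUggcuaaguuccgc
miR-24-2-5p: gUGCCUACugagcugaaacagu
miR-181d-5p: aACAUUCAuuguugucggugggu
miR-181c-5p: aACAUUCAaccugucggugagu
miR-23a-3p: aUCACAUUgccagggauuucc
A 136-base plus-strand peak (84208726 to 84208861) covered 21 of 21 bases of miR-27a-3p and 22 of 22 of miR-24-2-5p, and a 138-base minus-strand peak (84178750 to 84178887) covered all 23 bases of miR-181d-5p. No base of miR-181c-5p, which shares the seed ACAUUCA with miR-181d-5p, or of miR-23a-3p lay under a peak.

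The windows around 3 gene starts, from 250 bases before to 50 after (RefSeq, GRCm38.p6, 5′ to 3′ on the gene's strand), are shown with the bases under a sense-strand peak in capitals. Zfp42 encodes REX1, a marker of undifferentiated ES cells, and has the most peaks per kb among protein-coding genes of 10 kb or more that hold 5 or more peaks. Ankrd11, which encodes a chromatin regulator, has the most peaks. Cyb5b encodes the cytochrome b5 of the outer mitochondrial membrane and is among the 10 highest of the same ranking.
Zfp42 (chr8:43306960-43307259, minus strand): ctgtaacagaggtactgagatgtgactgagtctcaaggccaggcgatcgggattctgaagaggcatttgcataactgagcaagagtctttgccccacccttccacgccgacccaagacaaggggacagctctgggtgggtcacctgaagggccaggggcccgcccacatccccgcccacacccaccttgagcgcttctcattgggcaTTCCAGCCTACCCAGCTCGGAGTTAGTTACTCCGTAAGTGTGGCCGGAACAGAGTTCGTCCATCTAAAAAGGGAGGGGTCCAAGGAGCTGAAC
Ankrd11 (chr8:123042235-123042534, minus strand): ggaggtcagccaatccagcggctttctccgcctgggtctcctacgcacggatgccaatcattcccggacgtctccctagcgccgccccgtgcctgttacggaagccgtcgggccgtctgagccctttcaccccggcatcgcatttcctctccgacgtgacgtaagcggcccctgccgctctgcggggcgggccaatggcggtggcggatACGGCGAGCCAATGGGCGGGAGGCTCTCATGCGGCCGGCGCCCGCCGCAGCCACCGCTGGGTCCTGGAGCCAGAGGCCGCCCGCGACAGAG
Cyb5b (chr8:107150411-107150710, plus strand): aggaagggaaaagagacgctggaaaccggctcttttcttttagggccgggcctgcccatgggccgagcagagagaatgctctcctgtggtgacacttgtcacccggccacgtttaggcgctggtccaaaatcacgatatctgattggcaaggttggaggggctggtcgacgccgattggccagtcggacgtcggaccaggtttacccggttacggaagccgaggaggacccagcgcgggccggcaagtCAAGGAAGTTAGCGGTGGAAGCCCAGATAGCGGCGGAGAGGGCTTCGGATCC
The peak reached from 43 bases before the start of Zfp42 to the end of its window (93 bases), from 41 before the start of Ankrd11 (91 bases) and from 2 before the start of Cyb5b (52 bases). The GC box letters GGGCGG, searched on both strands, occurred 2 times in the Zfp42 window, 4 times in that of Ankrd11 and 0 times in that of Cyb5b. Among the 1442 such windows of 1204 genes of the chromosome, 28 windows (1.94%) of 26 genes held a sense-strand peak, against 334 of 27665 (1.21%) on the other autosomes. The GC box letters stood in 20 of these 28 windows (71.4%), in 36.9% of all 1442 windows and in 63.5% of the 299 windows of genes with a peak. CpG dinucleotides had a median of 26.5 in the 28 windows, 8 in all windows and 23 in those of genes with a peak. The other windows with a sense-strand peak include those of Cmip, Piezo1, Csnk2a2, Dnaja2 and Otud4. A gene can have several annotated starts. The windows with a peak in Gatad2a, Nutf2 and Mau2 belong to starts inside the gene, not to the outermost start.

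Peaks were denser on chromosome 8 than on each of the 17 other autosomes compared. There were 102 peaks per Mb of protein-coding gene, against 35.6 to 70.2 (median 52.7). Per Mb of the span between its outermost genes there were 40.0, against 12.4 to 30.3. In gene content it lay within the range of the others: it has 1042 protein-coding genes, or 8.06 per Mb (5.66 to 13.97 on the others), and genes fill 39.4% of its span (32.2 to 48.0%). The excess was present both in how many genes had a peak and in how many peaks such a gene held. At least 1 peak lay in 335 of 1042 protein-coding genes, 32.1% (interval 29.4 to 35.05%), against 22.5% of the 18010 genes of the other autosomes together and 17.5 to 28.6% on each. At least 3 peaks lay in 243 genes (23.3% against 14.5%), at least 50 in 20 (1.92% against 0.811%) and at least 100 in 7 (0.672% against 0.139%). These shares are set against the other autosomes together. Chromosome 1 alone had 22 of 1204 genes with at least 50 peaks, more than chromosome 8. A gene with a peak held a mean of 14.7 peaks (8.39 to 14.4 on the others) and a median of 7 (3 to 7), so the mean stands barely past the top of that range and the median within it. Chromosome 11, outside these ranges, was much like chromosome 8, with 131 peaks per Mb of protein-coding gene and a peak in 29.3% of its 1609 genes, so these traits are not particular to chromosome 8.

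**Figure D1:**
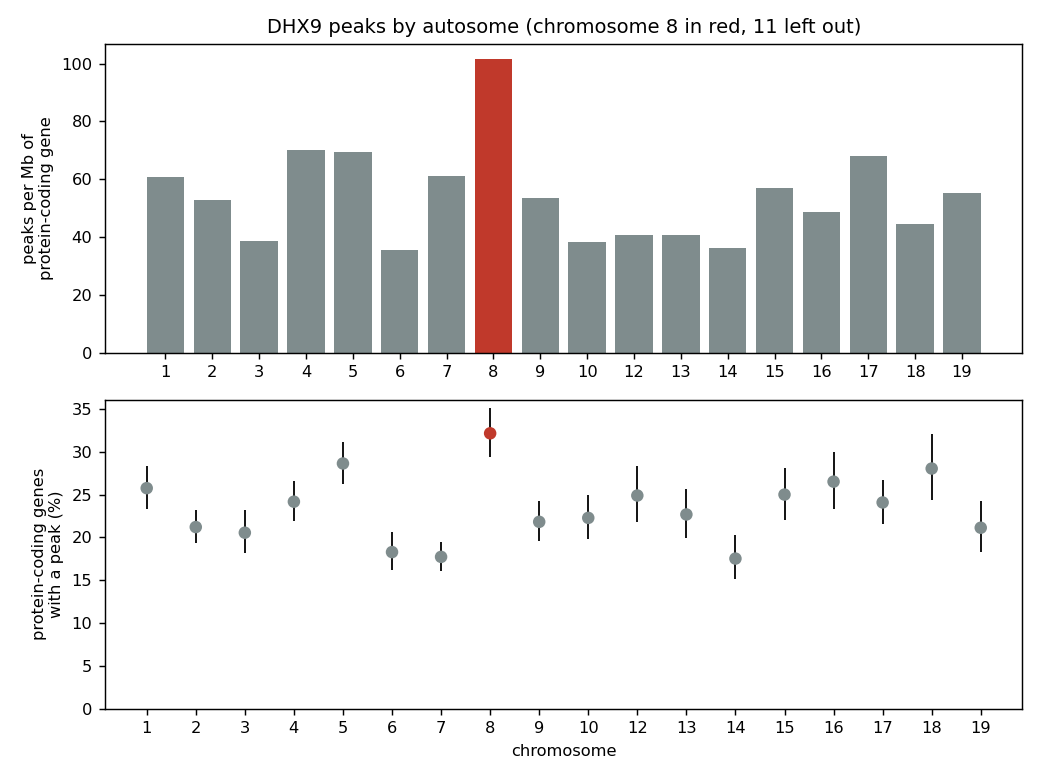
Upper panel, peaks per Mb of protein-coding gene on each autosome except 11; lower panel, percent of protein-coding genes with at least 1 peak, with 95% Wilson intervals. Chromosome 8 (red) stands at 102 peaks per Mb and 32.1% of genes, above the highest of the others at 70.2 and 28.6%.

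The excess was also present against genes of the same length. When each protein-coding gene was given the mean peak number of genes of its length (50 length bins) on the other autosomes, 2460 peaks were expected on chromosome 8 and 4938 were observed, 2.01 times as many. The same ratio was 0.720 to 1.29 on the others and 2.05 on chromosome 11. Of the genes, 237 were expected to hold a peak against the 335 observed (1.41 times), and the peaks per such gene were 1.42 times the expected number. The share of genes with a peak stood above that of the other autosomes in the first 4 of 5 length classes. In the second class, with a median gene of 8.11 kb, it was 28.2% against 14.9%, and in the fourth, with a median of 36.5 kb, it was 46.3% against 33.6%. In the longest class, with a median of 111 kb, the shares were 34.5% (27.8 to 41.8%) and 33.4%, which the interval does not separate. There the peaks per bound gene differed instead, with a mean of 35.9 against 14.6 and a median of 12.5 against 5. The mean was still 30.1 without the 2 genes with the most peaks, Ankrd11 and Rbpms.

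**Figure D2:**
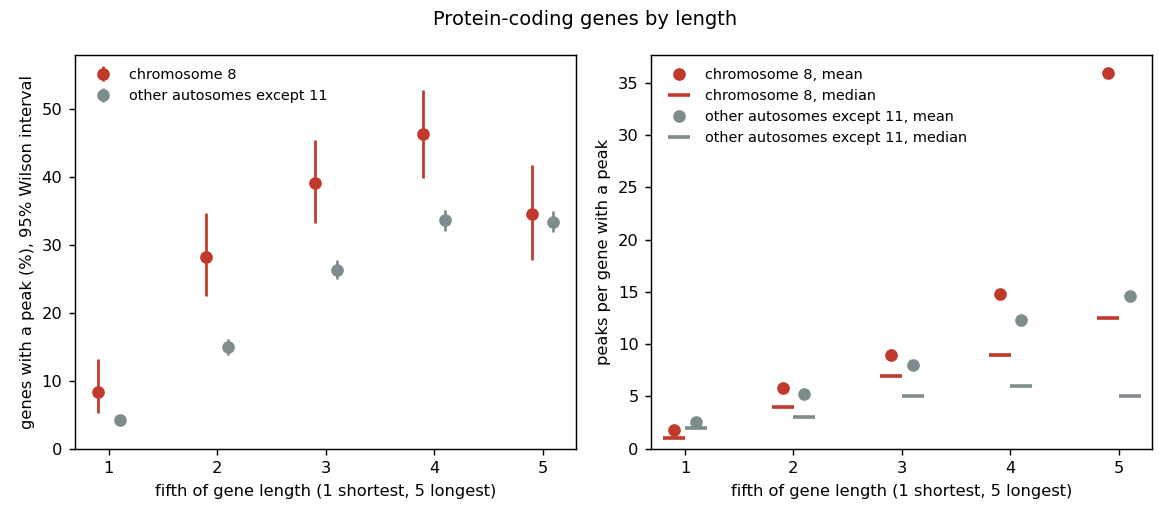
Protein-coding genes in 5 classes of length. Left, percent with a peak and 95% Wilson interval; right, mean (points) and median (bars) number of peaks per gene with a peak. Chromosome 8 is above the other autosomes in the share of genes in classes 1 to 4, and in class 5 in the number of peaks per gene, with means of 35.9 and 14.6.

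Peaks were concentrated in a few windows, most of them in the later part of the chromosome. Of 65 windows of 2 Mb, 10 (15.4%) held no peak, against 245 of 1106 (22.2%) elsewhere, and the median window held 30 peaks against 13. At least 300 peaks lay in 5 windows, 7.69% of those on chromosome 8 and 1.08% of the others. The busiest, 106 to 108 Mb, held 687 peaks, 13.3% of the chromosome's total and more than the busiest window of the other autosomes, which held 518 (chromosome 4, 132 to 134 Mb). The 6 busiest windows together held 2517 peaks, or 48.7%, with 271 of the 1042 protein-coding genes (26.0%). The share held by the busiest windows of the other autosomes was not worked out. The concentration is therefore not shown to be particular to chromosome 8.

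The window from 106 to 108 Mb held peaks in 22 of its 30 protein-coding genes, and 678 peaks in them where 81.5 were expected from length. Of its peaks 596 were on the plus strand. It is led by 4 plus-strand sets: 109 peaks in Sntb2, a syntrophin that ties signalling proteins to the dystrophin complex; 105 in Cdh1, which encodes E-cadherin, the adhesion molecule that holds ES cell colonies together; 78 in Nfat5, a transcription factor of the response to osmotic stress; and 59 in Cyb5b. Close by, in the preceding window, the insulator-binding protein gene Ctcf held 38 peaks, 37 of them on the plus strand. The second window, 110 to 112 Mb, held 528 peaks, and the counts in its protein-coding genes were 4.55 times the expected number. Its leading genes were Glg1, a Golgi sialoglycoprotein gene, with 100, Cfdp1 with 79, the ubiquitin ligase gene Znrf1 with 60 and the splicing factor gene Sf3b3 with 42.

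From 122 to 124 Mb there were 418 peaks (4.17 times the expected number in genes). Ankrd11 alone held 222 of them, followed by the mechanically gated channel gene Piezo1 with 30, Zc3h18 with 27 and the long noncoding RNA gene Gm39273 with 25, whose peaks all lay in Ankrd11 as well. The window from 70 to 72 Mb is gene-dense, with 89 protein-coding genes, and 37 of them shared 325 peaks (2.44 times the expected number). There the elongation factor gene Ell held 35, the cohesin loader gene Mau2 34, Zfp961 27 and Upf1, which encodes the helicase of nonsense-mediated decay, 25. From 84 to 86 Mb, 27 of 58 genes had a peak and the ratio was 2.60, with Tnpo2, a nuclear import receptor gene, at 21, the synaptonemal complex gene Syce2 at 20, and Nacc1 and 4921524J17Rik at 17 each. The window from 32 to 34 Mb is the only one of the 6 in the first 64 Mb. It held 241 peaks in a sparse neighbourhood of 11 protein-coding genes, and the counts in those genes were 5.74 times the expected number. Rbpms held 186 peaks and the general transcription factor gene Gtf2e2 38. The phosphatase gene Ppp2cb and Gm51528, which lies within Rbpms, held 9 each.

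**Figure D3:**
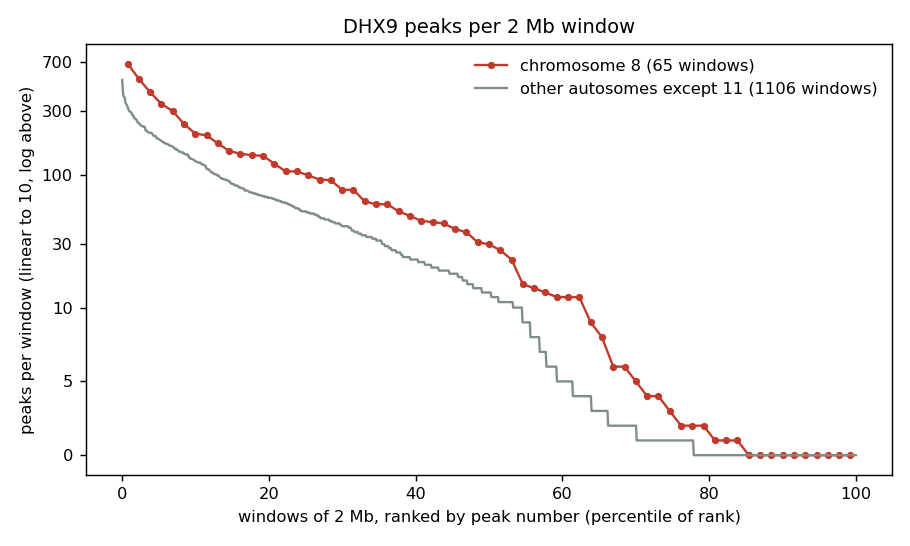
Peaks per 2 Mb window, ranked from the busiest to the emptiest window and drawn against the percentile of rank; the vertical axis is linear to 10 and logarithmic above. The windows of chromosome 8 (red, 65) lie above those of the other autosomes (grey, 1106) until both reach 0.

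The excess was not spread over the whole chromosome. In stretches of 32 Mb from its start, peaks in protein-coding genes were 0.884, 1.27 and 2.204 times the number expected from length, and from 96 to 130 Mb they were 2.91 times. Set at 66 Mb, a point chosen after the values were seen, the earlier stretch held 1024 peaks, a peak in 84 of 386 genes (21.8%; 17.9 to 26.2%) and a ratio of 1.03, close to that of the other autosomes. Past 66 Mb there were 4146 peaks (80.2%), a peak in 251 of 656 genes (38.3%; 34.6 to 42.0%) and a ratio of 2.59. The later stretch also has more genes. In windows with at least 20 protein-coding genes the ratio was 2.42 on chromosome 8 and 1.24 elsewhere, in windows of 10 to 19 genes 1.28 and 0.820, and in windows of 1 to 9 genes 1.71 and 0.583. The chromosome thus stood higher at each density, and its ratio did not rise steadily with density. The part of gene expression in this split was not tested. An excess of over 2 times was present in 19 of the 60 windows with genes (31.7%), against 10.7% of 1070 elsewhere, while 31 of the 60 held fewer peaks than expected. Peak-poor windows included 20 to 22 Mb, with 0 peaks in 48 protein-coding genes, and 92 to 94 Mb, with 0 in 17.

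In the earlier stretch, the locus of Zfp42 held far more peaks than its length predicts. In the window from 42 to 44 Mb, 126 peaks were counted in its 8 protein-coding genes, 6.46 times the expected number. The window held 144 peaks in all. Nearly all lay in Triml1 (80, minus strand), Triml2 (22, plus strand) and Zfp42 (24, minus strand) and in the flanks of Zfp42. Triml1 and Triml2 are neighbouring genes of the TRIM-like family. Within 20 kb of Zfp42 there were 40 minus-strand peaks: 24 inside the gene, 5 before its start, the furthest 13600 bases away, and 11 past its end, up to 3615 bases away. The 2 widest peaks of the chromosome, 813 bases (43302537 to 43303349) and 701 bases (43305575 to 43306275), are in Zfp42.

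A small number of genes held much of the chromosome's total. The 10 protein-coding genes with the most peaks held 1205, or 24.4% of all peaks counted in such genes (50.3 predicted from their lengths). The first 25 held 2064 (41.8%, with 122 predicted). Having been picked for their counts, these genes stand above the predicted numbers by construction. Such shares were not worked out for the other autosomes. Without the 10 genes with the most peaks on each chromosome, the ratio of observed to expected peaks was 2.00, against 2.01 with them. Ankrd11 (122883321 to 123042284) held 222 over 159 kb, 177 of them in no other gene. Rbpms, an RNA-recognition-motif protein gene (33782643 to 33929922), held 186 over 147 kb, and Gab1, which encodes a docking protein of growth factor receptors (80764431 to 80880519), held 128 over 116 kb. Sntb2 (106935740 to 107014232) and Cdh1 (106603350 to 106670247) held 109 and 105, Gatad2a, a subunit gene of the NuRD chromatin remodelling complex (69907069 to 69996402), 101 and Glg1 100. The chromatin remodeller gene Chd9 held 91, the signalling adaptor gene Cmip 83, and Triml1 80. Then came Cfdp1 and Cnot1, the scaffold of the CCR4-NOT deadenylase, with 79 each, Nfat5 with 78, the endocytosis gene Eps15l1 with 72, Znrf1 with 60 and Cyb5b with 59. The last of the 25 ranged from 55 in Tango6 to 42 in Sf3b3. They include the latrophilin gene Adgrl1 (52), the arginine methyltransferase gene Prmt7 (52), the noncanonical poly(A) polymerase gene Tent4b (50), the chromodomain gene Cdyl2 (48), the histone methyltransferase complex gene Ash2l (45), the deubiquitinase gene Usp10 (45) and Nfatc3 (43), a transcription factor of calcium signalling. In 22 of the 25, every peak was on 1 strand; the exceptions were Glg1 with 1 of 100 on the other strand, Chd9 with 2 of 91 and Tango6 with 1 of 55.

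**Figure D4:**
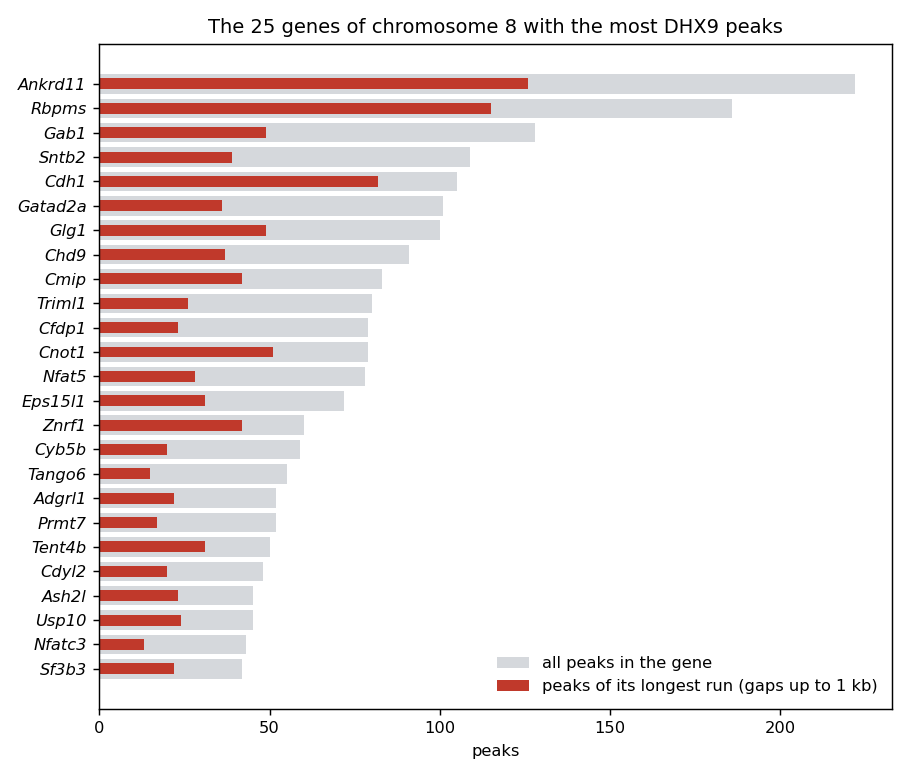
Number of peaks (horizontal axis) in each of the 25 genes of chromosome 8 with the most peaks: all peaks in grey, and those of the gene's longest run, with gaps of at most 1 kb, in red. Ankrd11 (222, of which 126 in 1 run), Rbpms (186 and 115) and Cdh1 (105 and 82) hold most of their peaks in a single run, while Gab1 (128 and 49) does not.

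Per kb of gene a different set came first. Ranked over coding genes no shorter than 10 kb and with 5 peaks or more, Zfp42 had 2.01 peaks per kb (24 in 11.9 kb). The gene for the translation repressor that binds the cap-binding factor, Eif4ebp1, had 1.89 (29 peaks), Nutf2, which carries Ran into the nucleus, 1.81 (36), and Nob1, a nuclease gene of small-subunit rRNA maturation, 1.75 (22). Triml2 had 1.64, Slc7a6os 1.62, Cyb5b 1.60, Triml1 1.58, the mitochondrial import receptor gene Tomm20 1.57 and Cdh1 1.57. With peaks within 50 bases merged, 8 of these 10 stayed among the 10 densest. Nutf2 went from 1.81 to 1.01 per kb and Nob1 from 1.75 to 1.04, since many of their peaks lie end to end.

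By share of genes with a peak, the translation, chromatin and RNA lists stood highest and the markers of differentiated cells lowest. The intervals are wide, and mitochondrial and metabolic genes stood close to the RNA list. These lists, all of chromosome 8, held 255 genes, 135 with a peak, and their shares are read against the 32.1% of all its protein-coding genes; expression was not matched. Of 33 chromatin and transcription regulators 24 had a peak (72.7%; 55.8 to 84.9%; median 9 peaks per gene against 0 over all genes, and 9.37 genes expected from length). They were led by Ankrd11, Gatad2a, Chd9 and Prmt7, and Smarca5, the ATPase of ISWI remodelling complexes, held 18. Sin3b, Sap30, Ing1, Ing2 and Nfix were among the 9 without one. Of 35 RNA processing and RNA-binding protein genes 24 had a peak (68.6%; 52.0 to 81.4%; median 6; 9.29 genes expected from length). They were led by Rbpms, Cnot1, Tent4b and Sf3b3, while the helicase genes Dhx38, Ddx28 and Ddx60 had none. Of 15 genes for translation and the ribosome 13 had a peak (86.7%; 62.1 to 96.3%; median 9; 2.97 genes expected from length). The tRNA-modifying enzyme gene Dus2 held 32, Eif4ebp1 29, the alanyl-tRNA synthetase gene Aars 24 and Nob1 22. The exceptions were Ctu2 and Dhps.

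DNA replication, repair, telomere and centromere genes had a peak in 18 of 30 cases (60%; 42.3 to 75.4%; median 3). The repair ubiquitin ligase gene Rfwd3 held 34, and the microcephaly gene Mcph1, the telomere protein gene Terf2 and the Fanconi anaemia gene Fanca held 25, 25 and 17. Of the 25 peaks in Mcph1, 10 lay in no other gene. Of the 25 in Terf2, 5 lay in no other gene, since 20 fell in the pseudogene LOC108167553 as well. The Werner helicase gene Wrn and the licensing factor gene Cdt1 had none. Mitochondrial and metabolic genes had a peak in 16 of 24 cases (66.7%; 46.7 to 82.0%; median 3.5; 5.30 genes expected from length). There Tecr, of very long chain fatty acid synthesis, held 25, of which 2 in no other gene, Tomm20 24, the amino acid transporter gene Slc7a5 19 and Ndufa13, a complex I subunit gene, 13. Genes of ubiquitin, the proteasome and chaperones had a peak in 11 of 18 (61.1%; Usp10 45, Otud4 41, N4bp1 27, Dnaja2 16). Membrane traffic genes had one in 13 of 22 (59.1%; Glg1 100, Eps15l1 72, the Golgi tether gene Cog4 39, the clathrin adaptor gene Ap1g1 22).

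The ES cell, early embryo and growth signalling list stood closer to the chromosome as a whole, with 10 of 24 genes (41.7%; 24.5 to 61.2%) and a median of 0 peaks. Gab1 (128) and Cdh1 (105) held most of its 282 peaks. Zfp42 (24 peaks) is not in this list. Zfp423 held 18 and Nacc1 17, the immediate early gene Junb and the transcription factor gene Klf2 held 1 each, and Smad1, Insr, Irs2 and Nanos3 held none. Of 31 markers of differentiated cell types 3 had a peak (9.68%; 3.35 to 24.9%), where 5.83 genes were expected from length. They were the neuronal tubulin gene Tubb3 with 7 and the endothelial gene Plvap and the brain proteoglycan gene Ncan with 1 each. Markers at 0 included Hand2, Cdh5, Klf1, Lpl and Ucp1. Of 6 fibroblast markers only Vegfc had peaks (10), where 1.97 genes were expected from length. Col4a1, Col4a2, Mmp2, Cdh11 and Sfrp1 had 0. Of 17 long genes of neurons and late tissues, with a median length of 523 kb, 2 had peaks, where 4.24 were expected from length. Tenm3 held 10 and the calcium channel gene Cacna1a 9, while Csmd1, Nrg1 and Cdh13 had 0. The pulldowns were made from bulk cells, so fewer cells of a type and less RNA per cell cannot be told apart.

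**Figure D5:**
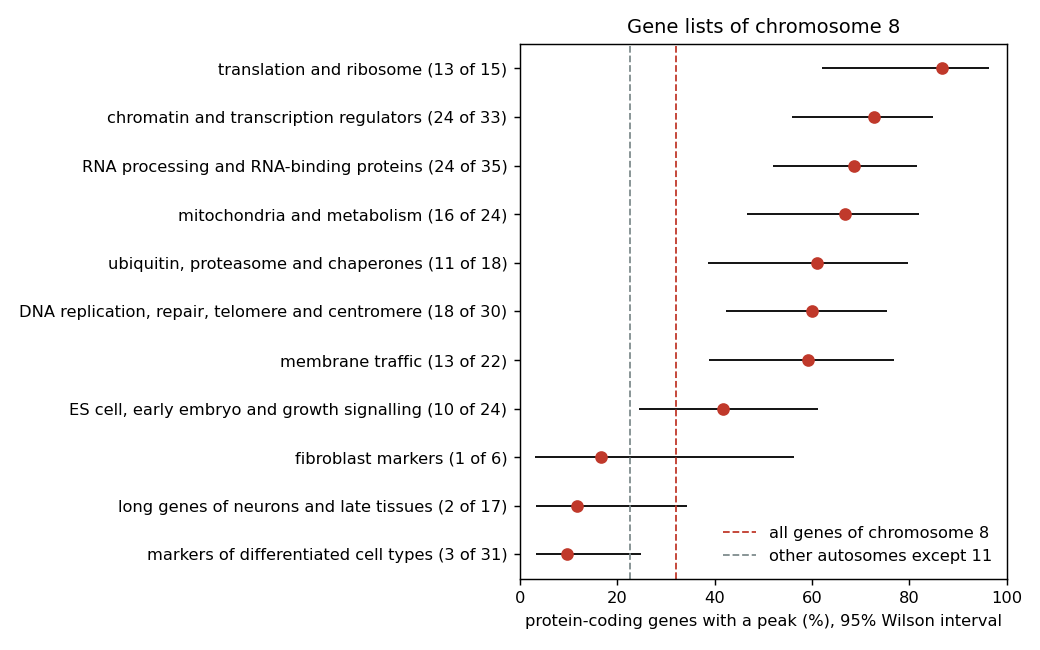
Percent of genes with at least 1 peak (points) and 95% Wilson interval (lines) for 11 gene lists of chromosome 8, with the number of genes. The dashed lines stand at 32.1% (all protein-coding genes of the chromosome, red) and 22.5% (other autosomes, grey); translation genes stand highest at 86.7% and markers of differentiated cell types lowest at 9.68%.

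Gene families that sit in arrays on the chromosome were looked at after the values were seen. None of 52 genes with a defensin symbol, which encode antimicrobial peptides, held a peak, against 32.1% of all protein-coding genes of the chromosome and 1 of 18 defensin genes on the other autosomes; 0 of 52 allows a share of up to 5.77%. There was likewise no peak in 14 Adam protease genes (up to 21.4%; 2 of 18 elsewhere) or 19 carboxylesterase genes (up to 15.8%). Zinc finger genes with the prefix Zfp had a peak in 12 of 25 cases (48.0%), against 101 of 342 (29.5%) on the other autosomes, led by Zfp961 (27), Zfp42 (24), Zfp1 (22) and Zfp423 (18). Of 8 cadherin genes 2 had a peak (25%, near the share of all genes, and 2 of 15 elsewhere), with 105 in Cdh1 and 3 in its neighbour Cdh3.

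Peaks followed each other closely, in long runs. Neighbouring peaks of a strand were a median of 252 bases apart, less than on each of the other autosomes (292.5 to 413). With runs defined by gaps of at most 1 kb, 4156 peaks (80.4%) stood in runs of at least 3 (66.6 to 76.8% on the others) and 2547 (49.3%) in 126 runs of at least 10 (30.6 to 44.6%). Peaks standing alone numbered 632 (12.2%; 14.6 to 21.7%). On chromosome 11 the median gap was 260 bases and 80.1% of peaks stood in runs of at least 3. The longest run, 126 peaks over 51.2 kb (122991151 to 123042325), started 41 bases before Ankrd11 and ran into the gene. The next covered 40.6 kb of Rbpms with 115 peaks from 35 bases inside its start, 32.4 kb of Cdh1 with 82 from 1200 bases inside, 18.7 kb of Cnot1 with 51, and 21.9 kb of Gab1 and 18.9 kb of Glg1 with 49 each. Of the 10 longest runs on all autosomes, chromosome 11 included, 3 are on chromosome 8. Among the chromosome's 20 longest, 5 began within 500 bases of a gene start (in Ankrd11, Rbpms, the phosphate transporter gene Slc20a2, Nutf2 and Eps15l1), while that of Gab1 began 22269 bases downstream of the start.

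Peaks were slightly wider than elsewhere and equally split between strands. The median width was 202 bases (quartiles 149 and 275), against 188 to 201 on the other autosomes, so the difference from the widest of them is 1 base; on chromosome 11 it was 201. Width went with runs: it was 218 bases in runs of at least 10 and 168 for peaks standing alone, and 221 and 162 elsewhere. Together the peaks covered 1154 kb of the stranded chromosome. The plus strand held 2598 peaks and the minus strand 2572, or 50.2% plus (48.9 to 51.6%); on the other autosomes the plus share ran from 41.5% (chromosome 7) to 73.2% (chromosome 18). Without the 10 genes with the most peaks, the plus share was 55.8%. Single windows were far from even, as 106 to 108 Mb with 596 of 687 on the plus strand and 80 to 82 Mb, the window of Gab1, with all 151 on the minus strand.

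Within genes, peaks lay on the strand of the gene. A RefSeq strand was at hand for 237 of the 335 protein-coding genes with a peak, and in 227 of them most peaks were sense. Of 3471 peaks in single such genes 23 were antisense (0.663%; 1.07% elsewhere). The largest of the 10 exceptions was Mast1, a kinase gene with 7 antisense peaks, of which 1 lay in no other gene. Among genes that no other gene overlaps and that hold 5 peaks or more, the minority strand held 26 of 1961 peaks (1.33%, against 44 of 18608 or 0.236%), and 93 of 98 such genes had peaks on 1 strand alone. The exceptions were Kxd1 (11 plus, 10 minus), 4921524J17Rik (7 and 10), Chd9 (89 and 2), Glg1 (1 and 99) and Adat1 (6 and 33). The plus-strand peaks of Adat1, a tRNA deaminase gene, belong to a set of 32 that starts in the neighbouring autophagy gene Gabarapl2. Of these, 12 lay in Gabarapl2, 14 in the 6004 bases between the genes, and 6 in Adat1, reaching 2414 bases into it.

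Along the gene, the first 20% of the body held more peaks than the last. In 106 genes with a RefSeq strand, a length of 20 kb or more and 5 or more peaks, successive 20% stretches held a mean of 24.0% ± 2.16 (SE over genes), 22.4%, 19.5%, 20.4% and 13.7% ± 1.94 of a gene's peaks. In 1177 genes elsewhere the first and last held 28.4% ± 0.786 and 13.0% ± 0.588. The difference was thus 10.2 percentage points on chromosome 8 and 15.4 elsewhere, with no test of one against the other. The first held more in 64 of the 106 genes (60.4%; 62.2% elsewhere) and the last in 31. Single genes differed widely. Cmip had 56 of 83 peaks in its first 20%, Slc20a2 36 of 40 and Cnot1 46 of 79, while Gab1 had 1 of 128 there and 31 in its last, with its first peak 22392 bases from the start. Rbpms and Ankrd11 had 83 of 186 and 73 of 222 in the first 20%. Gene direction for Slc20a2, Cnot1 and Rbpms was read from the strand of their own peaks.

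Outside protein-coding genes peaks were few. Protein-coding genes held 4890 of the 5170 peaks (94.6%; 92.4% elsewhere), other annotated genes alone held 91, and 189 (3.66%) lay in no annotated gene (3.07 to 7.24%). Long noncoding RNA genes had a peak in 49 of 707 cases (6.93%; 3.92% elsewhere). The largest counts belonged mainly to genes that share their stretch with a coding gene: all 25 peaks of Gm39273 and all 20 of Gm39272 lay in Ankrd11 too, all 23 of D830024N08Rik in other genes, and all 20 of LOC108167553 in other genes. The peaks of 2500002B13Rik were its own, 22 of 22 on the plus strand (57487963 to 57510262). Intergenic peaks also stood in clusters, and those named were picked after their values were seen. Between 84654810 and 84668234 there were 18 on the plus strand around the immediate early gene Ier2, 13 lay on the minus strand 368 bases and more before the start of Rab8a, which runs on the plus strand and held 0 peaks, and 11 on the plus strand lay between Trir and Tnpo2.

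A few small RNA genes lay under peaks. A peak overlapped 8 of 56 microRNA genes (7.76% elsewhere), 8 of 58 snoRNA genes (12.8%), 3 of 7 tRNA genes (28.3%), 1 of 40 snRNA genes (3.26%) and 0 of 48 rRNA genes. The microRNA genes were Mir23a, Mir27a, Mir24-2 and the opposite-strand Mir3074-2 in 1 cluster, Mir181c and Mir181d in another, Mir7238 in Ankrd10 and Mir7079 in Rpl13. Around the miR-23a cluster 14 plus-strand peaks lay between 84201238 and 84208861. Of the 10 mature arms of these 5 hairpins, the peaks cover miR-27a-3p, miR-24-2-5p and miR-181d-5p whole, 9 of the 22 bases of miR-23a-5p and 3 of the 22 of miR-181c-3p. No base was covered in miR-23a-3p, miR-27a-5p, miR-24-3p, miR-181c-5p or miR-181d-3p. SnoRNAs, which guide chemical modification of rRNA and lie mostly in introns of host genes, were overlapped in Ap1g1 (Snord71), Sf3b3 (Snord111 and LOC115485679), Rpl13 (Snord68), St3gal2 (Gm26132) and Tomm20 (LOC115487043), and in Snord13, which has no host. The peak over Snord68 covers 115 bases and that over Snord13 155. The tRNA genes n-TLcag4, n-TGgcc2 and n-TMcat17 and the snRNA gene Gm25321, which lies in Ap1g1, were the other overlaps.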

How the data were processed

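The data were 4 FLASH libraries of WT26 cells, 2 for DHX9 and 2 for IgG, for which the authors deposited 1 pooled peak list; only its coordinates and strands were used. Bowtie2 2.2.6 and the builds hg19 and mm10 stand in the submitters' processing notes; mm10 was taken for this list. Peaks were called with PEAKachu, per the source column of the deposited list; no source used here gives its version, settings or use of the IgG samples.

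A peak was counted in every gene of the RefSeq table (GRCm38.p6, the assembly of mm10) that held its midpoint. Gene direction came from the RefSeq promoter table, or else from the strand of the peaks. Exons, introns and repeats were not analysed here. Expected counts used genes of the same of 50 length bins on the other autosomes except 11. Runs joined same-strand peaks with gaps of at most 1 kb. A count of 0 was taken to allow up to 3. Scripts (Python 3.11.15, pandas 2.3.3, NumPy 2.4.6, SciPy 1.17.1, Matplotlib 3.10.9) were tested on simulated data. No hypothesis test was run.

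The chromosome, the 11 gene lists and the comparisons were chosen with earlier results of these data known. Genes named are the 25 with the most peaks, the 10 densest (at least 10 kb and 5 peaks), up to 4 leading members of each list and of each of the 6 busiest windows, the 5 leading noncoding genes, those with the 5 longest runs, small RNA genes under a peak, and exceptions of 5 or fewer. All others (such as Ctcf, Smarca5, Junb, Klf2, Slc20a2, list members without a peak and examples of promoters) were chosen after their values were seen. Alternatives merged peaks within 50 bases, kept wide peaks, or changed the assignment, windows, gaps, gene set or threshold. For 1 gene list and 1 snoRNA host no values are reported here.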

Additional observations from a re-analysis of the deposited data

How the results depend on the processing

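Of 86 recomputed main values 67 stayed near the value given and 19 moved. With peaks narrower than the median of the list left out there were 2726 peaks, 349 in the busiest window, 26.2% of genes with a peak, an observed over expected ratio of 2.14 and 1 differentiated marker with a peak. Peaks per Mb of protein-coding gene were 2.07 times the pooled density of the other autosomes with that setting, against 1.95 with all peaks. This ratio was 1.89 with peaks within 50 bases merged and 2.03 without the 10 genes with the most peaks on each chromosome. The observed over expected ratio was 1.80 among genes that overlap no other gene. Before 72 Mb in place of 66 Mb it was 1.24. The 6 busiest windows held 45.5% when shifted by 1 Mb. With windows of 1 Mb, the busiest ones that cover the same total length held 55.7%. With at least 3 peaks required, 23.3% of genes, 6 ES cell and signalling genes and 1 differentiated marker remained. Runs of at least 3 held 69.2% of peaks with gaps of 500 bases and 92.4% with 5 kb (62.5% and 88.2% elsewhere). Merged peaks had a median width of 214 bases. The plus share was 55.8% without the 10 genes with the most peaks. Of 75 counts for single genes 23 moved, all with the wider peaks. That setting leaves out peaks below the median width by design, so lower counts follow from it. The other split points, length bins and gene sets for the split and for position along genes, and any overlap for the expected ratio, were added after seeing the data. No paired analysis was possible because the list gives nothing per replicate. Depth is unknown, so no limit of detection can be given for a gene without a peak.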
